A study of Homo sapiens with 4 samples.

Results

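The small CTD phosphatases and the REST repressor complex were followed as 8 genes, chosen by name, on 4 arrays of HCT-116 cells labelled dicer-. The genes were CTDSP1, CTDSP2, CTDSPL and CTDSPL2, which encode the phosphatases, and REST, RCOR1, RCOR3 and SIN3A, which encode the repressor and its corepressors. They had 18 probe sets that the platform annotation assigns to 1 gene alone, of 52377 on the array, and were 8 of 19798 genes measured. All 8 were measured, and no filter on low values was applied. A further probe set, shared by RCOR1 and RXRB, was left out because it does not belong to RCOR1 alone. HCT-116 is a human colon carcinoma line, and Dicer is the enzyme that cuts microRNA precursors; the labels do not say how the line was altered. All groups share this background and were collected at 24 h. Mock transfection gave 2 arrays. The duplex of miR-124 whose guide strand is intact (G/P) and the duplex whose guide strand is segmented (G10.12/P) gave 1 array each, both at 10 nM. The comparison asks whether a microRNA keeps its activity when its guide strand is in segments.

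REST is a zinc finger protein that binds the RE1 element near neuronal genes and silences them outside the nervous system. It recruits CoREST (RCOR1 and its relatives, with the demethylase KDM1A and histone deacetylases) and the SIN3 complex built on SIN3A. The small CTD phosphatases remove phosphate from the tail of RNA polymerase II and from other proteins, act with REST at neuronal genes, and help protect REST from degradation. miR-124 is a neuronal microRNA, and small CTD phosphatases are among its known targets, so the microRNA and the REST machinery oppose each other as neurons form.

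CTDSP1, CTDSP2 and CTDSPL each host a microRNA gene of the miR-26 family within their span. The sequences are shown because they mark what these 3 genes share beyond their protein product, a feature that CTDSPL2 and the 4 genes of the REST group did not have in the RefSeq table. MIR26B lies within CTDSP1, MIR26A2 within CTDSP2 and MIR26A1 within CTDSPL. The mature miR-26b-5p is at chr2:218402657-218402677 on the plus strand of GRCh38.p14 (RefSeq). The mature miR-26a-5p is at chr12:57824658-57824679 on the minus strand, in CTDSP2, and at chr3:37969413-37969434 on the plus strand, in CTDSPL. Capitals mark the seed, bases 2 to 8, which the family members share.
miR-26b-5p (CTDSP1): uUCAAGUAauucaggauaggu
miR-26a-5p (CTDSP2 and CTDSPL): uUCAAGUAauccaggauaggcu
The arrays measured the host genes and gave no level of these microRNAs here.

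Values are log2 of the deposited RMA intensity, and a change is the log2 level with a duplex minus the mean of the mock arrays. Between the mock arrays 3.23% of genes (639) stood at least 1.5-fold apart. EPCAM (13.04), KRT19 (11.11) and CDH1 (11.04), epithelial genes, had high mean log2 levels in mock cells. The colon markers CEACAM5 (2.00), VIL1 (2.98) and LGALS4 (3.34) were low. Of the 9 epithelial and colon genes measured, TSPAN8 (1.99), CDH1 (0.79) and CDX2 (0.69) passed limma's test with a higher level after the intact duplex, and TSPAN8 (1.49) after the segmented duplex. Over all genes 14.5% and 3.31% were called higher. TSPAN8 rose from a low mean log2 level of 3.18 in mock cells. KRT18 was lower with both duplexes (-0.52 and -0.49) without passing. Median log2 changes of these 9 genes were 0.16 and 0.02. DICER1 had log2 levels of 11.21 and 11.28 in the mock pair, 11.13 with the intact and 10.80 with the segmented duplex, and all 5 of its probe sets were lower than the mock mean with both duplexes, 0 of them past limma's test over all probe sets. Of 12 markers of other cell types, 9 lay below the median log2 level of all genes in mock cells (6.62). Their summed intensity was 872 and 787 in the mock pair, 1832 with the intact and 1057 with the segmented duplex. Of the 12, 3 passed limma's test with the intact and 0 with the segmented duplex (1 at an unadjusted p under 0.05). These counts are near or below the shares over all genes. Those were 24.9% and 5.99% passing, and 27.4% at an unadjusted p under 0.05 with the segmented duplex. The actin gene of smooth muscle, ACTA2, was 2.23 higher and the collagen gene COL1A1 1.20 higher on the log2 scale with the intact duplex, and the astrocyte gene GFAP was lower (-0.70). The list's median log2 change was -0.03 with the intact and 0.03 with the segmented duplex. The part of these markers in the results below was not tested. Each duplex had 1 array, so limma's test (adjusted p under 0.05, Benjamini-Hochberg over all genes) takes its spread from the mock pair and assumes that a lone array varies like it. For each gene this spread mixes its own mock pair (1 residual degree of freedom) with a prior pooled over all genes (2.89 degrees of freedom). The prior holds more of the weight. CTDSPL and CTDSPL2, whose mock arrays nearly coincided, thus both had a limma SE of 0.12. Whether the mock arrays stem from separate cultures is not labelled, so the spread behind the p-values is that between arrays and may be technical.

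With the intact duplex 3 of the 4 phosphatase genes and RCOR1 fell, RCOR3 rose, and CTDSPL2, REST and SIN3A did not pass. Those are 4 falls and 1 rise among 8 genes, in a comparison where 24.9% of all genes passed, 10.4% lower and 14.5% higher. With the segmented duplex CTDSP1 and CTDSPL fell and the other 6 genes did not pass, where 5.99% of all genes passed, 2.68% lower and 3.31% higher. Under 3 other settings (dim genes left out, a pseudocount, or a trended and robust prior) CTDSP2, RCOR1 and RCOR3 passed with the segmented duplex too, and RCOR1 also passed with the arrays centred on their medians (limma adjusted p = 0.0482). Tested as 18 probe sets among 52377, 4 fell and 1 rose with the intact and 1, that of CTDSPL, fell with the segmented duplex, where 17.1% and 1.39% of all probe sets passed. The median log2 change of the 8 genes was -0.41 with the intact and -0.35 with the segmented duplex, against medians over all genes of 0.02 and 0.01. Over their 18 probe sets the medians were -0.22 and 0.14, against -0.01 and -0.01 over all probe sets. With the segmented duplex the sign of the median thus depended on whether genes or probe sets were used. For the 4 phosphatase genes alone the median log2 changes were -1.32 and -0.77. The median log2 changes of REST and its 3 corepressors were -0.01 and 0.06. Both comparisons use the same mock arrays.

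**Figure D1:**
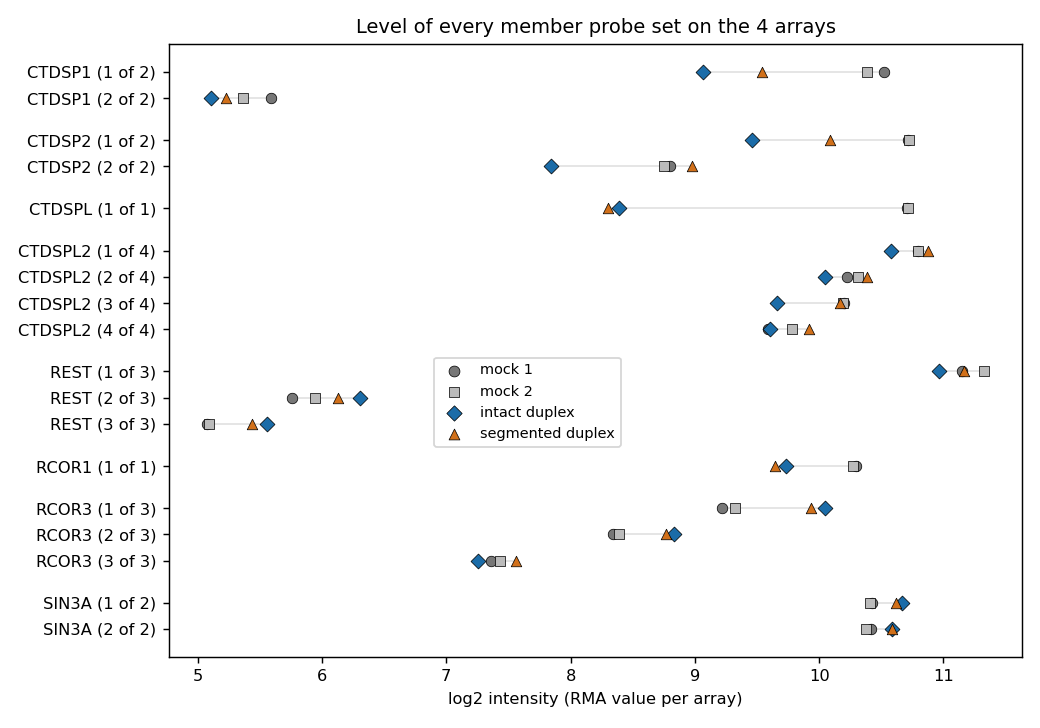
Log2 intensity (x axis) of each of the 18 probe sets of the 8 genes (rows, numbered from the brightest to the dimmest of a gene) on the 4 arrays, with 1 point per array and a grey line over their range. Both duplexes lie far to the left of the mock arrays for CTDSPL, at log2 8.39 and 8.30 against 10.71 on each mock array, and the only probe set of RCOR1 lies to the left as well.

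CTDSPL, the small phosphatase also studied as a tumour suppressor that acts on the retinoblastoma protein, moved furthest of the 8. Its only probe set, 100123595_TGI_at, read a log2 level of 10.71 on both mock arrays, 8.39 with the intact and 8.30 with the segmented duplex. The mock arrays differed by 0.0032, and both duplexes lay far below them. The log2 change was -2.32 with the intact duplex, a 5.003-fold lower level (limma SE 0.12, adjusted p = 0.00822), and -2.41 with the segmented duplex (5.32-fold lower, limma adjusted p = 0.0349). Of the 19798 genes, 95 had a lower change in the intact comparison and 10 in the segmented one. CTDSPL had no other probe set to set beside this value.

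CTDSP1, the first-described small CTD phosphatase, fell with both duplexes. Its brighter probe set, 100162777_TGI_at, had log2 levels of 10.52 and 10.38 in the mock pair, 9.07 with the intact and 9.54 with the segmented duplex. Both duplexes were below both mock arrays, and the intact duplex was the lower of them. The log2 changes were -1.39 (2.61-fold lower, limma SE 0.14, adjusted p = 0.0108) and -0.92 (1.89-fold lower, limma adjusted p = 0.0484). The dimmer probe set, 100300900_TGI_at, had log2 levels of 5.59 and 5.37 in the mock pair, 5.11 with the intact and 5.23 with the segmented duplex. It went the same way by -0.37 and -0.25 and did not pass, with limma adjusted p-values of 0.215 and 0.459 over all probe sets. With the mean of both probe sets in place of the brighter, the change of CTDSP1 with the segmented duplex was -0.58 and missed the threshold (limma adjusted p = 0.0896). Among all probe sets the brighter one missed it with the segmented duplex as well (limma adjusted p = 0.0699).

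CTDSP2, a close relative of CTDSP1 and host of miR-26a, fell with the intact duplex. Its brighter probe set, 100154499_TGI_at, had log2 levels of 10.71 and 10.73 in the mock pair, 9.46 with the intact and 10.08 with the segmented duplex. The log2 change with the intact duplex was -1.26 (2.39-fold lower, limma SE 0.12, adjusted p = 0.0105). With the segmented duplex it was -0.63, which did not pass (limma adjusted p = 0.0682). The dimmer probe set, 100138125_TGI_at, had log2 levels of 8.80 and 8.75 in the mock pair, 7.84 with the intact and 8.98 with the segmented duplex. Here the intact duplex was below both mock arrays (-0.94, limma adjusted p = 0.0246 over all probe sets) and the segmented duplex above both (0.20, adjusted p = 0.476). The probe sets of CTDSP2 thus went the same way with the intact duplex and opposite ways with the segmented duplex.

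CTDSPL2, the more distant member of the family, did not pass with either duplex. Its brightest probe set, 100125548_TGI_at, had log2 levels of 10.79 on both mock arrays, 10.58 with the intact and 10.88 with the segmented duplex. For the changes of -0.21 and 0.08, limma gave adjusted p-values of 0.28 and 0.707. Its 4 probe sets spanned changes of -0.53 to -0.08 (intact) and of -0.03 to 0.24 (segmented), and 0 of them passed over all probe sets. The largest of these, -0.53 for probe set 100134000_TGI_at, had a limma adjusted p of 0.0746.

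Across the 9 probe sets of the phosphatase genes, 8 lay below both mock arrays with the intact duplex and 1 between them. With the segmented duplex 5 lay below both mock arrays and 4 above both. Over all probe sets, 41.2% lay below both mock arrays with the intact duplex. With the segmented duplex that share was 39.6%, and 37.8% of all probe sets lay above both. Of the 9 probe sets of REST and its corepressors, 3 were below and 6 above both mock arrays with the intact duplex, where 40.4% of all probe sets were above. The intact array was below and the segmented array above both mock arrays for 5.26% of all probe sets. Of these 9, with the segmented duplex, 1 was below both mock arrays, 1 between them and 7 above both, where 37.8% of all probe sets were above.

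REST itself did not pass with either duplex, and its probe sets disagreed. The brightest, 100140776_TGI_at, had log2 levels of 11.15 and 11.32 in the mock pair, 10.96 with the intact and 11.16 with the segmented duplex. The intact array was below both mock arrays and the segmented array lay between them. The log2 changes were -0.27 (95% limma interval -0.67 to 0.13, adjusted p = 0.248) and -0.07 (-0.47 to 0.33, adjusted p = 0.788). Probe set 100304126_TGI_at read 5.76 and 5.95 in the mock pair, 6.31 with the intact and 6.13 with the segmented duplex, and 100139208_TGI_at read 5.08, 5.09, 5.56 and 5.44 in that order. Both were higher than both mock arrays with both duplexes, by 0.46 and 0.27 and by 0.47 and 0.36. Neither passed, with limma adjusted p-values over all probe sets from 0.095 to 0.401. With the mean of the 3 probe sets the change of REST was 0.22 with the intact and 0.19 with the segmented duplex, so its direction depends on the probe sets used. The dimmer probe sets lay below the median log2 level of all genes in mock cells (6.62). Whether they detect REST above background was not tested.

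RCOR1, the CoREST scaffold that joins KDM1A and histone deacetylases to REST, was lower with both duplexes. Its probe set, 100137095_TGI_at, had log2 levels of 10.30 and 10.28 in the mock pair, 9.73 with the intact and 9.64 with the segmented duplex. Both duplexes were below both mock arrays. The change with the intact duplex, -0.55 (1.47-fold lower, limma SE 0.12), passed narrowly with an adjusted p of 0.0456. The change with the segmented duplex, -0.64, was as large but did not pass (limma adjusted p = 0.067), in a comparison where fewer genes passed overall. Tested among all probe sets in place of genes, RCOR1 did not pass with the intact duplex either (limma adjusted p = 0.0697).

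RCOR3, a CoREST relative, went the other way. Its brightest probe set, 100156457_TGI_at, had log2 levels of 9.22 and 9.32 in the mock pair, 10.05 with the intact and 9.93 with the segmented duplex. Both duplexes were above both mock arrays. The change with the intact duplex was 0.78 (1.72-fold higher, limma SE 0.13, adjusted p = 0.0253), and with the segmented duplex 0.66, which did not pass (limma adjusted p = 0.0701). Probe set 100122871_TGI_at was also higher, by 0.47 and 0.40, without passing. Probe set 100125741_TGI_at, the dimmest, stood at a change of -0.14 with the intact duplex and of 0.16 with the segmented duplex. With the mean of its 3 probe sets RCOR3 stood 0.37 higher with the intact duplex and missed the threshold (limma adjusted p = 0.102).

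SIN3A, the scaffold of the SIN3 histone deacetylase complex, did not pass. Its brighter probe set, 100305871_TGI_at, had log2 levels of 10.43 and 10.41 in the mock pair, 10.66 with the intact and 10.62 with the segmented duplex. Both duplexes lay above both mock arrays, by changes of 0.24 (95% limma interval -0.09 to 0.58) and 0.20 (-0.13 to 0.54). Its other probe set, 100130687_TGI_at, stood 0.19 higher with each duplex.

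**Figure D2:**
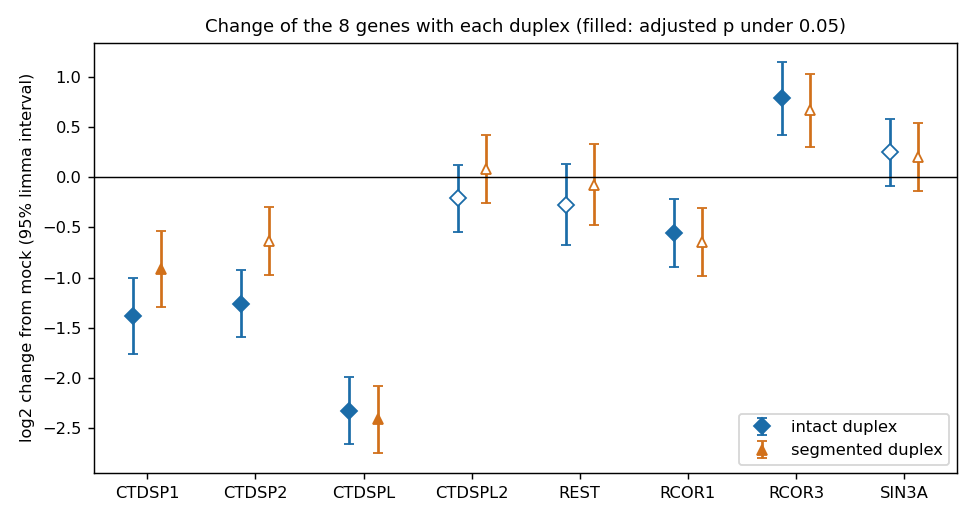
Log2 change from the mock mean (y axis) of each of the 8 genes by its brightest probe set, with the intact (diamonds) and segmented (triangles) duplex. Bars are 95% limma intervals, whose spread comes from the mock pair and a prior pooled over all genes. Filled symbols passed the test. CTDSPL stands at -2.32 and -2.41, and RCOR3 is the only gene with a filled symbol above 0. The intervals of the duplexes overlap for every gene, but both share the mock mean. Their overlap therefore does not measure the difference between the duplexes.

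The duplexes, 1 pair of related molecules at the same dose and time, were set against each other directly. By limma's test 0 of the 8 genes and 0 of 19798 genes passed, while 2 of the 8 and 3273 of all genes had an unadjusted p under 0.05. The levels of CTDSPL with the segmented and the intact duplex differed by -0.09 on the log2 scale (segmented minus intact, 95% limma interval -0.48 to 0.30). RCOR1 differed by -0.09 (-0.48 to 0.30) and RCOR3 by -0.12 (-0.54 to 0.30). CTDSP2 was 0.62 higher with the segmented duplex (0.23 to 1.01, limma adjusted p = 0.211), and its dimmer probe set was 1.14 higher (0.70 to 1.58, adjusted p = 0.265 over all probe sets). CTDSP1 was 0.47 higher with the segmented duplex (0.03 to 0.91, limma adjusted p = 0.288), and CTDSPL2 was 0.30 higher (-0.09 to 0.68). REST (0.20, -0.26 to 0.66) and SIN3A (-0.04, -0.43 to 0.35) had intervals that include 0. A difference that misses the threshold does not show that the duplexes act alike. Each interval mixes a gene's own mock spread with the prior pooled over the mock pairs of all genes. The spread behind these intervals comes from the mock pair alone, and the call of CTDSP2 changed with the settings: its adjusted p was 0.0203 without the dimmest 40% of genes, 0.0375 with a pseudocount of 16 and 0.00106 with a trended and robust prior. CTDSP1 passed too under that last setting (limma adjusted p = 0.019).

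By size alone, 4 of the 8 genes were 1.5-fold or more away from each mock array when the intact duplex was given, CTDSP1, CTDSP2, CTDSPL and RCOR3, where 23.2% of all genes did. With the segmented duplex 5 did, the same 4 genes and RCOR1, where 12.3% of all genes did. This count does not use limma's estimate of the spread, but it does depend on how far apart the mock arrays stand.

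The genes whose pattern over the 4 arrays was nearest were found by distance, in log2 units after subtracting the mock mean, among 9898 other genes above the median level. For CTDSPL these were DNAJC1 (distance 0.22, changes of -2.39 and -2.26) and LITAF (0.24, changes of -2.55 and -2.46). For CTDSP1 they were FKBP15 (0.04) and CAD (0.06), the enzyme that starts pyrimidine synthesis. For CTDSP2 they were SKP2 (0.01), a ubiquitin ligase subunit gene, and NDUFS3 (0.04), a respiratory chain gene. RCOR1 was nearest to KLF5 (0.02) and AHNAK (0.04), and RCOR3 to MTERF2 (0.02) and STXBP5 (0.03). The nearest genes of CTDSPL were several times further from it than those of the other 4 genes from theirs. Distances were not scaled by the size of a change. Of all genes only 95 (intact) and 10 (segmented) had a lower change than CTDSPL. The larger distance therefore does not show a distinct pattern.

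Other phosphatases of the polymerase tail or of the same fold passed the test with neither duplex. Of CTDP1, CTDNEP1, SSU72, RPAP2, UBLCP1 and TIMM50, 0 of 6 passed limma's test with either duplex, 1 had an unadjusted p under 0.05 with the intact and 0 with the segmented duplex. Over all genes 24.9% and 5.99% passed, and 39.5% and 27.4% had an unadjusted p under 0.05. The log2 changes ran from -0.11 to 0.52 and from -0.0035 to 0.20. RPAP2 stood furthest with the intact duplex, at 8.11 and 8.06 on the mock arrays and 8.60 with the duplex (limma adjusted p = 0.0542). UBLCP1 stood furthest with the segmented duplex (0.20, limma adjusted p = 0.377).

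Of 7 proteins known as substrates of small CTD phosphatases, the genes MYC and RB1 fell with the intact duplex, while the other 5 did not pass. A count of 2 of 7 is near the 24.9% of all genes that passed. RB1, the retinoblastoma gene, had log2 levels of 10.54 and 10.80 in the mock pair, 9.57 with the intact and 10.21 with the segmented duplex. Its changes were -1.10 (limma adjusted p = 0.0214) and -0.45 (adjusted p = 0.188). MYC changed by -1.35 and -1.08, past the threshold with both (limma adjusted p = 0.0126 and 0.0446). The list's median log2 change was 0.21 with the intact and 0.13 with the segmented duplex. SMAD2, named here after its values were seen, had 6 probe sets that split. Its brightest stood 0.28 and 0.16 higher without passing, while 3 others fell by 2.12, 2.16 and 2.23 with the intact and by 1.54, 1.53 and 1.49 with the segmented duplex, all past limma's threshold over all probe sets.

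**Figure D3:**
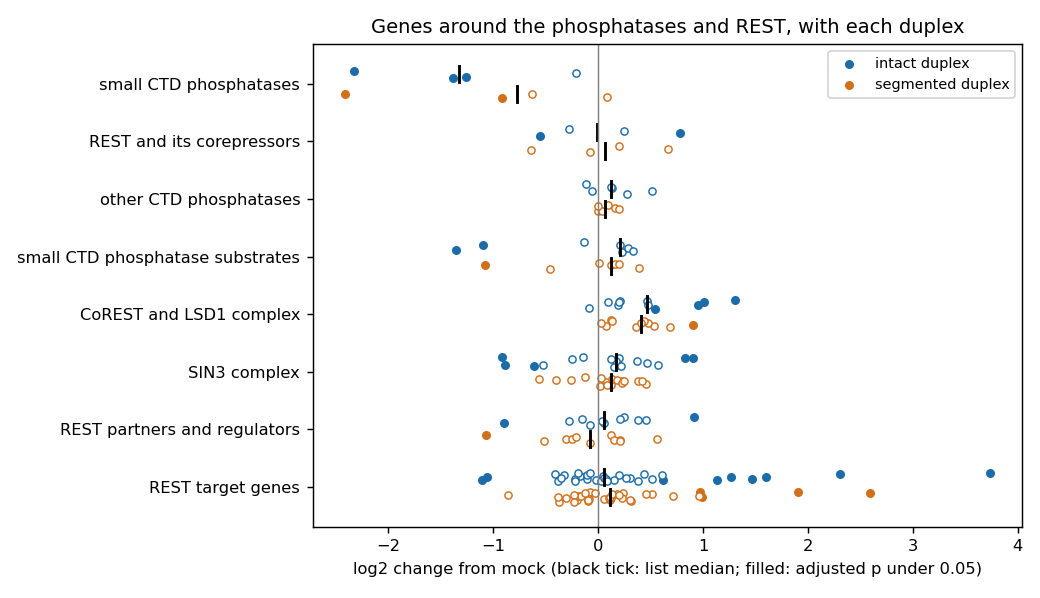
Log2 change from mock (x axis) of every measured gene of 8 lists (rows) with the intact (upper points) and segmented (lower points) duplex; black ticks are list medians and filled points passed limma's test. The small CTD phosphatases have medians of -1.32 and -0.77, and among the REST target genes a few points reach from 1 to 3.74 while most lie near 0.

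Among partners of RCOR1 in the CoREST and LSD1 complex, every gene that passed rose. Of 11 measured genes 4 rose and 0 fell with the intact duplex, and 1 rose and 0 fell with the segmented duplex, by limma's test; 6 and 4 had an unadjusted p under 0.05. Over all genes 14.5% were called higher and 10.4% lower with the intact, and 3.31% and 2.68% with the segmented duplex, and 39.5% and 27.4% had an unadjusted p under 0.05. The list medians were 0.46 and 0.41, against 0.02 and 0.01 over all genes. PHF21A, a reader of unmethylated histone H3, had log2 levels of 7.18 and 7.23 in the mock pair, 8.51 with the intact and 8.12 with the segmented duplex. It rose by 1.302 (limma adjusted p = 0.0103) and 0.91 (adjusted p = 0.0438), although with the segmented duplex 1 of its 4 probe sets went the other way. RCOR2, the third CoREST gene, rose by 1.01 with the intact duplex (limma adjusted p = 0.0178) from log2 levels of 5.90 and 5.74. GSE1 rose by 0.96 and HMG20B by 0.54 with the intact duplex. KDM1A, the catalytic demethylase of the complex, did not pass, with log2 levels of 12.09 and 11.99 in the mock pair, 12.25 with the intact and 12.16 with the segmented duplex.

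Of 17 measured genes of the SIN3 complex 3 were lower and 2 higher past limma's test after the intact duplex, and 0 passed after the segmented duplex, with 9 and 4 at an unadjusted p under 0.05. The first count is near the 24.9% of all genes that passed, and with the segmented duplex 5.99% did. At an unadjusted p under 0.05 were 39.5% and 27.4% of all genes. SAP30, a SIN3 subunit gene, had log2 levels of 8.14 and 8.35 in the mock pair, 7.33 with the intact and 7.68 with the segmented duplex, and fell by 0.91 with the intact duplex (limma adjusted p = 0.0265). SAP18 fell by 0.89 by its brightest probe set, but 2 of its 4 probe sets went the other way. SIN3B, the relative of SIN3A, rose by 0.83 with the intact duplex (limma adjusted p = 0.0205). KDM5A, a histone H3 lysine demethylase, passed by the probe set brightest over all 4 arrays (0.91, limma adjusted p = 0.026). By the probe set brightest on the mock arrays it did not, with changes of 0.03 and -0.38 (limma adjusted p = 0.915 and 0.205), which leaves 1 gene of the complex that rose. The list medians were 0.17 and 0.12.

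Of 11 other partners and regulators of REST, 2 passed with the intact and 1 with the segmented duplex, where 24.9% and 5.99% of all genes did. TERF2 rose by 0.92 and PRICKLE1 fell by 0.90 with the intact duplex (limma adjusted p = 0.0174 and 0.0208). PRICKLE1, which encodes a protein that binds REST and affects its passage to the nucleus, had log2 levels of 7.71 and 7.58 in the mock pair, 6.75 with the intact and 6.57 with the segmented duplex. It fell by 1.07 with the segmented duplex too (limma adjusted p = 0.0412), and all 3 of its probe sets were lower with both. TERF2, a telomere-binding protein, also binds REST, and its change with the segmented duplex, 0.56, did not pass (limma adjusted p = 0.0836). For TERF2 the other 2 probe sets were lower than mock with both duplexes.

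Some genes known as REST targets rose, but most did not pass. Of 35 measured, 7 rose and 2 fell with the intact duplex, and 4 rose and 0 fell with the segmented duplex, by limma's test; 12 and 10 had an unadjusted p under 0.05. The shares over all genes were 14.5% higher and 10.4% lower with the intact duplex, and 3.31% and 2.68% with the segmented duplex. An unadjusted p under 0.05 was held by 39.5% and 27.4% of all genes, against 34.3% and 28.6% of the list. By the probe set brightest on the mock arrays NEFM, a neurofilament gene, fell as well with the intact duplex (-0.65, limma adjusted p = 0.0311). The list medians, 0.06 and 0.11, lay near those of all genes, and 23 of the 35 genes were below the median log2 level of all genes in mock cells. Whether such levels lie above background was not tested. SCN2A and SCG2 belong to the large rises of these arrays and were known from earlier results when the list was written. Their rises are within the counts above and give no independent support for a rise of the list.

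SCN2A, a neuronal sodium channel gene, had log2 levels of 6.03 and 6.14 in the mock pair, 9.82 with the intact and 8.68 with the segmented duplex. It rose by 3.74 and 2.60 (limma adjusted p = 0.00822 and 0.0349), and its other probe set went the same way. SCG2, which encodes a secretory granule protein, rose by 2.30 and 1.90, from 7.05 and 7.06 on the mock arrays to 9.36 and 8.96. Both duplexes lay above both mock arrays for these genes, and the intact duplex was the higher. CELSR3, a cadherin gene of axon guidance, had log2 levels of 8.48 on both mock arrays, 10.08 with the intact and 9.46 with the segmented duplex (changes of 1.602 and 0.98, limma adjusted p = 0.00885 and 0.0412). The metalloproteinase gene MMP24 rose by 1.47 and 0.99 (limma adjusted p = 0.01 and 0.0447). DISP2 (1.13), SYP (1.27) and SNAP25 (0.62) rose with the intact duplex, and CPLX1 (-1.10) and NEFH (-1.06) fell with it. For NEFH 1 of 3 probe sets went the other way.

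**Figure D4:**
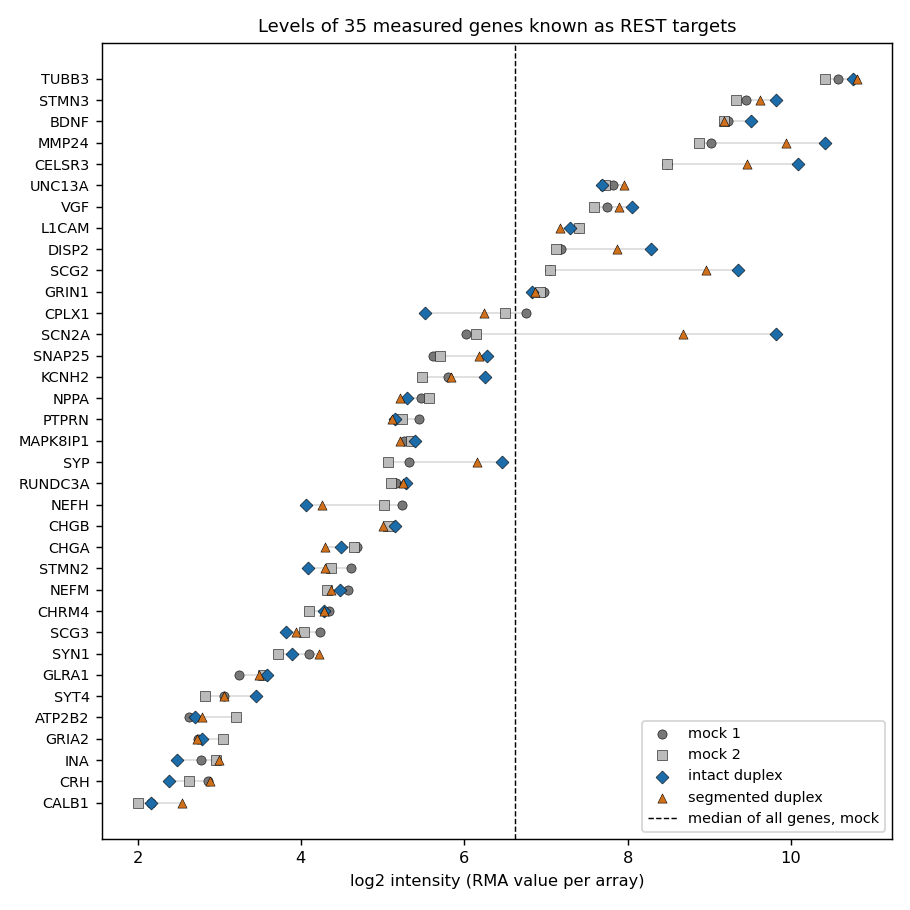
Log2 intensity (x axis) on the 4 arrays of 35 measured genes known as REST targets, each by its brightest probe set, ordered by mock level; the dashed line is the median of all genes in mock cells, log2 6.62. SCN2A and SCG2 reach 9.82 and 9.36 with the intact duplex, while most genes left of the line have all 4 points close together.

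The RE1 element was searched as strings of letters: TTCAGCACC alone, GGACAG alone, and TTCAGCACC followed after any 2 bases by GGACAG. Both strands were searched in windows from 250 bases before to 50 bases after a gene's start (RefSeq, GRCh38.p14). Some genes had several windows, and a gene counted when any of its windows held the string. The longest string contains the others. Windows were at hand for 24 of the 36 listed REST target genes. TTCAGCACC was found in 5 of these 24 genes (20.8%), against 0.469% of all 27305 genes with a window. The longest string was found in GRIA2 and SYN1, 8.33% of the 24, against 0.0183% of all. The short string GGACAG was found in 12 of the 24 (50%), against 24% of all. Per window, GGACAG was in 29.3% of the 41 windows of the target genes, against 20.5% of all 35116 windows. TTCAGCACC was in 12.2% of those 41 windows, against 0.376% of all. For GGACAG the gap was thus smaller per window than per gene. Among the 8 genes, 7 had a window and 0 of the 7 held TTCAGCACC or the longest string. GGACAG alone was found in the 3 phosphatase genes with a window (CTDSP1, CTDSP2 and CTDSPL2), in 6 of their 9 windows. In the REST group it was found in 2 of 4 genes, RCOR1 and REST, and in 2 of 7 windows. A match describes letters only, and the absence of one says that these letters are not in this window. REST binds this element and the list holds known REST targets. A higher share than over all genes was therefore likely from the choice of genes and is no independent result. The 3 matches of TTCAGCACC upstream of a start in target genes are shown because the genes that hold them differed in their response. TTCAGCACC and GGACAG are in capitals, read along the strand that holds the match, which is the minus strand in all 3.
CELSR3, chr3:48663010-48663039: ctctgTTCAGCACCaggagcaacgctcacg
GRIA2, chr4:157220384-157220413: ggcctTTCAGCACCgaGGACAGcgcctcgc
SYN1, chrX:47620066-47620095: ccagcTTCAGCACCgcGGACAGtgccttcg
CELSR3, with TTCAGCACC alone in its stretch, rose with both duplexes. GRIA2, a glutamate receptor gene, had log2 levels of 2.74 and 3.04 in the mock pair, 2.79 with the intact and 2.73 with the segmented duplex. SYN1, which encodes the synaptic vesicle protein synapsin, had levels of 4.10, 3.71, 3.89 and 4.23 in the same order. Neither passed limma's test, and both had low levels on all 4 arrays. UNC13A and SCG3, which hold TTCAGCACC outside the stretch before the start, did not pass either.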

How the data were processed

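Gene expression was measured on 4 arrays. The authors deposited a linear intensity for each probe set on each array; RMA is named per the submitters' processing notes (version: not given in the sources used here). The deposited intensities ran from 2.51 to 22268, so log2 was taken with no pseudocount. RMA makes array distributions nearly equal, which removes a shift common to most genes. Probe sets were named through the platform annotation, with symbols updated by Entrez identifier to RefSeq (GRCh38.p14): 35134 of 35184 with 1 gene matched. For genes, the probe set brightest over the 4 arrays was used.

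Limma 3.58.1 in R 4.3.3 fitted 3 group means over 4 arrays with eBayes, over 19798 genes and separately over 52377 probe sets, with 1 residual degree of freedom. Alternatives were another quantile normalization, median centring, a filter on dim genes, a pseudocount, a trended robust prior, other probe set rules (that brightest on the mock arrays was chosen after seeing the data), another fold and leaving out a mock array. The members, gene lists and naming rules were chosen with earlier results of these data known. The rules named the 8 genes, up to 4 genes per list and comparison with the largest change past the threshold (else the largest 1), and the 2 nearest genes to each called member. SMAD2, KDM1A and REST targets beyond these rules were named with their values in view. Precision is limited by how few arrays there are.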

Additional observations from a re-analysis of the deposited data

Results flagged for a closer look

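For 4 probe sets the intact duplex lay below and the segmented duplex above both mock arrays, as did 5.26% of all probe sets (2754 of 52377). In segmented minus intact, the differences on the log2 scale were 1.14 for the dimmer probe set of CTDSP2 (100138125_TGI_at), 0.30 for CTDSPL2 100125548_TGI_at, 0.34 for CTDSPL2 100311404_TGI_at and 0.31 for RCOR3 100125741_TGI_at. By limma's test over all probe sets 0 of the 4 differences passed, with adjusted p-values of 0.265, 0.488, 0.452 and 0.482; over all 52377 probe sets 0 passed and 7060 had an unadjusted p under 0.05.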

How the results depend on the processing

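No paired analysis was possible because each duplex has 1 array and the groups share fewer than 2 replicate numbers. Leaving out a mock array gives values with no test, since no residual degree of freedom is left. With 1 of 2 mock arrays left out, a change always moves by less than the SD of the mock pair. The size of that move therefore cannot show stability. REST with the segmented duplex stood at 0.01 without mock replicate 2 and at -0.16 without mock replicate 1, in place of -0.07. With the segmented duplex 5 of the 8 genes passed, in place of 2, with the dimmest 40% left out, with a pseudocount of 16 and with a trended and robust prior (CTDSP2, RCOR1 and RCOR3 joined), and 1 passed with the mean of a gene's probe sets. RCOR1 joined also with median centring (-0.70, adjusted p = 0.0482). In segmented minus intact 1, 1 and 2 of the 8 passed under the same 3 settings, in place of 0: CTDSP2 under each, and CTDSP1 with the trended and robust prior. The probe set brightest on the mock arrays, which differs for 384 genes, changed no call among the 8 genes, and in the other gene lists those of KDM5A and NEFM with the intact duplex. REST turned to 0.22 (intact), 0.19 (segmented) and -0.034 (segmented minus intact) with the mean of its probe sets, and RCOR3 to 0.043 in segmented minus intact. REST with the intact duplex passed with the trended and robust prior (limma adjusted p = 0.0245; 0.285 with the mean of its probe sets). At 2-fold 1 of the 8 genes stood apart with the segmented duplex, in place of 5.

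Over all genes, the intact count was 7809 with the trended and robust prior, in place of 4937. The segmented count was 4781, 4279 and 5415 with the dimmest 40% left out, the pseudocount and the trended and robust prior, in place of 1186, and the count of segmented minus intact was 1850, 1138 and 2412, in place of 0. Over probe sets these 3 settings gave 13992, 14415 and 16294 for intact (in place of 8946), 7353, 7417 and 10111 for segmented (in place of 728) and 599, 649 and 3955 for segmented minus intact (in place of 0). For segmented the probe set count was also 1531 with a further quantile normalization, 2255 with median centring and 2434 with probe sets of 1 gene alone. Genes apart from both mock arrays numbered 7006 and 4613 (intact and segmented) at 1.3-fold and 2046 and 757 at 2-fold, in place of 4589 and 2428. The causes were not tested.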
